A study of Mus musculus with 60 samples.

Results

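The glucocorticoid receptor gene Nr3c1, the mineralocorticoid receptor gene Nr3c2 and 8 genes induced by these receptors were followed across the prefrontal cortex libraries of a mouse study of Trip12. The 10 genes were taken from the 18088 rows of the deposited table by matching each Ensembl identifier to its symbol, and all 10 were found. The 8 targets were Fkbp5, Zbtb16, Sgk1, Tsc22d3, Hif3a, Map3k6, Errfi1 and Plin4. They were selected on the drug against vehicle differences of these same libraries, which were already known. The drug differences of the 10 genes are therefore given as a description without p-values. Tests are reported for comparisons that did not choose them, although the interactions with a drug reuse the same libraries.

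The libraries came from C57BL/6J mice sampled on postnatal day 25, and messenger RNA was sequenced from dissected prefrontal cortex. The 60 libraries form 12 groups of 5 that cross genotype (labelled heterozygous, HT, or wild type, WT, for Trip12), sex and treatment. Treatments were vehicle, the antidepressant fluoxetine, which blocks serotonin reuptake, and lithium, used in bipolar disorder. All pups received theirs through the milk of the dam for 3 weeks, from postnatal day 3 to 24. The labels name neither single animals, pools nor litters and give no doses. The tests therefore measure how much the deposited samples vary, which may be partly technical. Because treatment reached the pups through the dam, differences between litters and between treatments cannot be told apart here. Every SE and p-value takes the libraries as independent. The labels also do not say what the Trip12 allele is.

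Corticosterone from the adrenal gland enters cells and binds receptors of the NR3C family held in chaperone complexes with heat shock protein 90. The mineralocorticoid receptor binds it with the higher affinity, and the glucocorticoid receptor is filled mainly at the daily peak and under stress. The bound receptors act in the nucleus on DNA elements built from inverted repeats of a 6-letter arm, and the genes they induce include brakes on the receptors themselves, such as Fkbp5.

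Libraries held 25135647 to 36624113 reads. Fluoxetine libraries (32654674 to 36624113 reads) were all deeper than vehicle libraries (26591584 to 30985097 reads), so depth and fluoxetine cannot be told apart by splitting the samples. Lithium libraries spanned 25135647 to 35858996 reads. Trip12 itself was higher in the libraries labelled HT, at a mean of 6186 normalized counts against 5740 in WT (log2 fold change 0.11 ± 0.02 SE, limma adjusted p = 0.0014). Its level thus went against the labels if HT stands for a lost gene copy, so each direction between genotypes below is that of the libraries labelled HT and WT. The 8 cortical excitatory neuron markers summed to between 49452 and 71682 normalized counts in the 60 libraries, and none of the 8 was at 0. Markers of neighbouring tissue varied more. The 10 striatal markers summed to 5917 to 20522 in vehicle, 6216 to 15503 in fluoxetine and 6458 to 9320 in lithium libraries. The 5 olfactory bulb markers summed to 409 to 8640, 316 to 8969 and 269 to 10457.

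The element the receptors recognise is spelled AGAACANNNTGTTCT in its ideal form, where N is any letter. It was searched, with its 6-letter arm AGAACA and the reverse complement TGTTCT, on both strands of RefSeq promoter windows (GRCm38.p6, 250 bases before to 50 after a transcription start). Among the members, 8 of 10 matched the table, with 16 windows; Nr3c1 and Zbtb16 did not. Of the 32851 windows of all genes, 3 held the full element, or 0.00913%, and 1 of these belonged to Sgk1. The arm alone is common, present in 6233 windows (19%) of all genes and in 4 of the 16 windows of the members. Each full element also counts as 2 arms. The 3 windows below are shown because they belong to the gene with the full element, to a gene with the arm and to Fkbp5, whose lithium and vehicle libraries did not overlap. Capitals mark full elements and arms, and each line reads 5′ to 3′ along the gene.
Sgk1, chr10:21993640-21993939, plus strand: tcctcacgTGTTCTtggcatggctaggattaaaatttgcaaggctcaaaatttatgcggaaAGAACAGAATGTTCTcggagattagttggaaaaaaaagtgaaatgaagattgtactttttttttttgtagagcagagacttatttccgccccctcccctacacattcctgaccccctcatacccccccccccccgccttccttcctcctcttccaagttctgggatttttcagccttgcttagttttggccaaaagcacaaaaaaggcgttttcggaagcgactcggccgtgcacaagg
Tsc22d3, chrX:140600473-140600772, minus strand: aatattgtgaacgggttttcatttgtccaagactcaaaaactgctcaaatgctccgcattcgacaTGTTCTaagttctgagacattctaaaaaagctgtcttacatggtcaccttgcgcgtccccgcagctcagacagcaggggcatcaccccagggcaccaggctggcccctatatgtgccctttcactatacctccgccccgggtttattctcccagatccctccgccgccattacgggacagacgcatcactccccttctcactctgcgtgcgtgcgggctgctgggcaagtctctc
Fkbp5, chr17:28486100-28486399, minus strand: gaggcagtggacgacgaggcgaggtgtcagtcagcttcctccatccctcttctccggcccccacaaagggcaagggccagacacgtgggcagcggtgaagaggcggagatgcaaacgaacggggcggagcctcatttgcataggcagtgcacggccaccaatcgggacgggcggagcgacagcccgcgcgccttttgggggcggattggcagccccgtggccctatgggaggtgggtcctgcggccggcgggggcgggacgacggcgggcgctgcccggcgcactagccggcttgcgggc

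Positions are counted from the transcription start. In the Sgk1 window (start 21993890) the full element begins at -189 and a separate arm at -242. The other 5 Sgk1 windows held 2 arms and no full element. In Tsc22d3 (start 140600522) the arm begins at -185. Neither spelling occurs in the Fkbp5 window. The matches describe letters only, and elements further away or spelled otherwise were not searched.

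Levels per kilobase of exon ordered the members in vehicle libraries as follows. Tsc22d3 was highest at 418 ± 57.0 normalized counts per kilobase (SD, n = 20), then Nr3c1 at 365 ± 30.6, Sgk1 at 331 ± 36.9, Errfi1 at 251 ± 15.1, Zbtb16 at 183 ± 29.7, Nr3c2 at 136 ± 7.11, Fkbp5 at 92.5 ± 16.8, Hif3a at 39.6 ± 13.4, Map3k6 at 19.9 ± 5.93 and Plin4 at 3.50 ± 1.52. Tsc22d3 and Nr3c1, and Nr3c1 and Sgk1, differed by less than the larger SD of each pair, and the other neighbours in this order by more. The glucocorticoid receptor gene thus stood above the mineralocorticoid receptor gene in messenger level. Averaged over the 60 libraries, Tsc22d3 exceeded 83.9% of all genes in level per kilobase and Plin4 exceeded 12.7%. All 10 members passed the filter on low values, and Plin4 was below 10 normalized counts in 2 of 60 libraries.

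**Figure D1:**
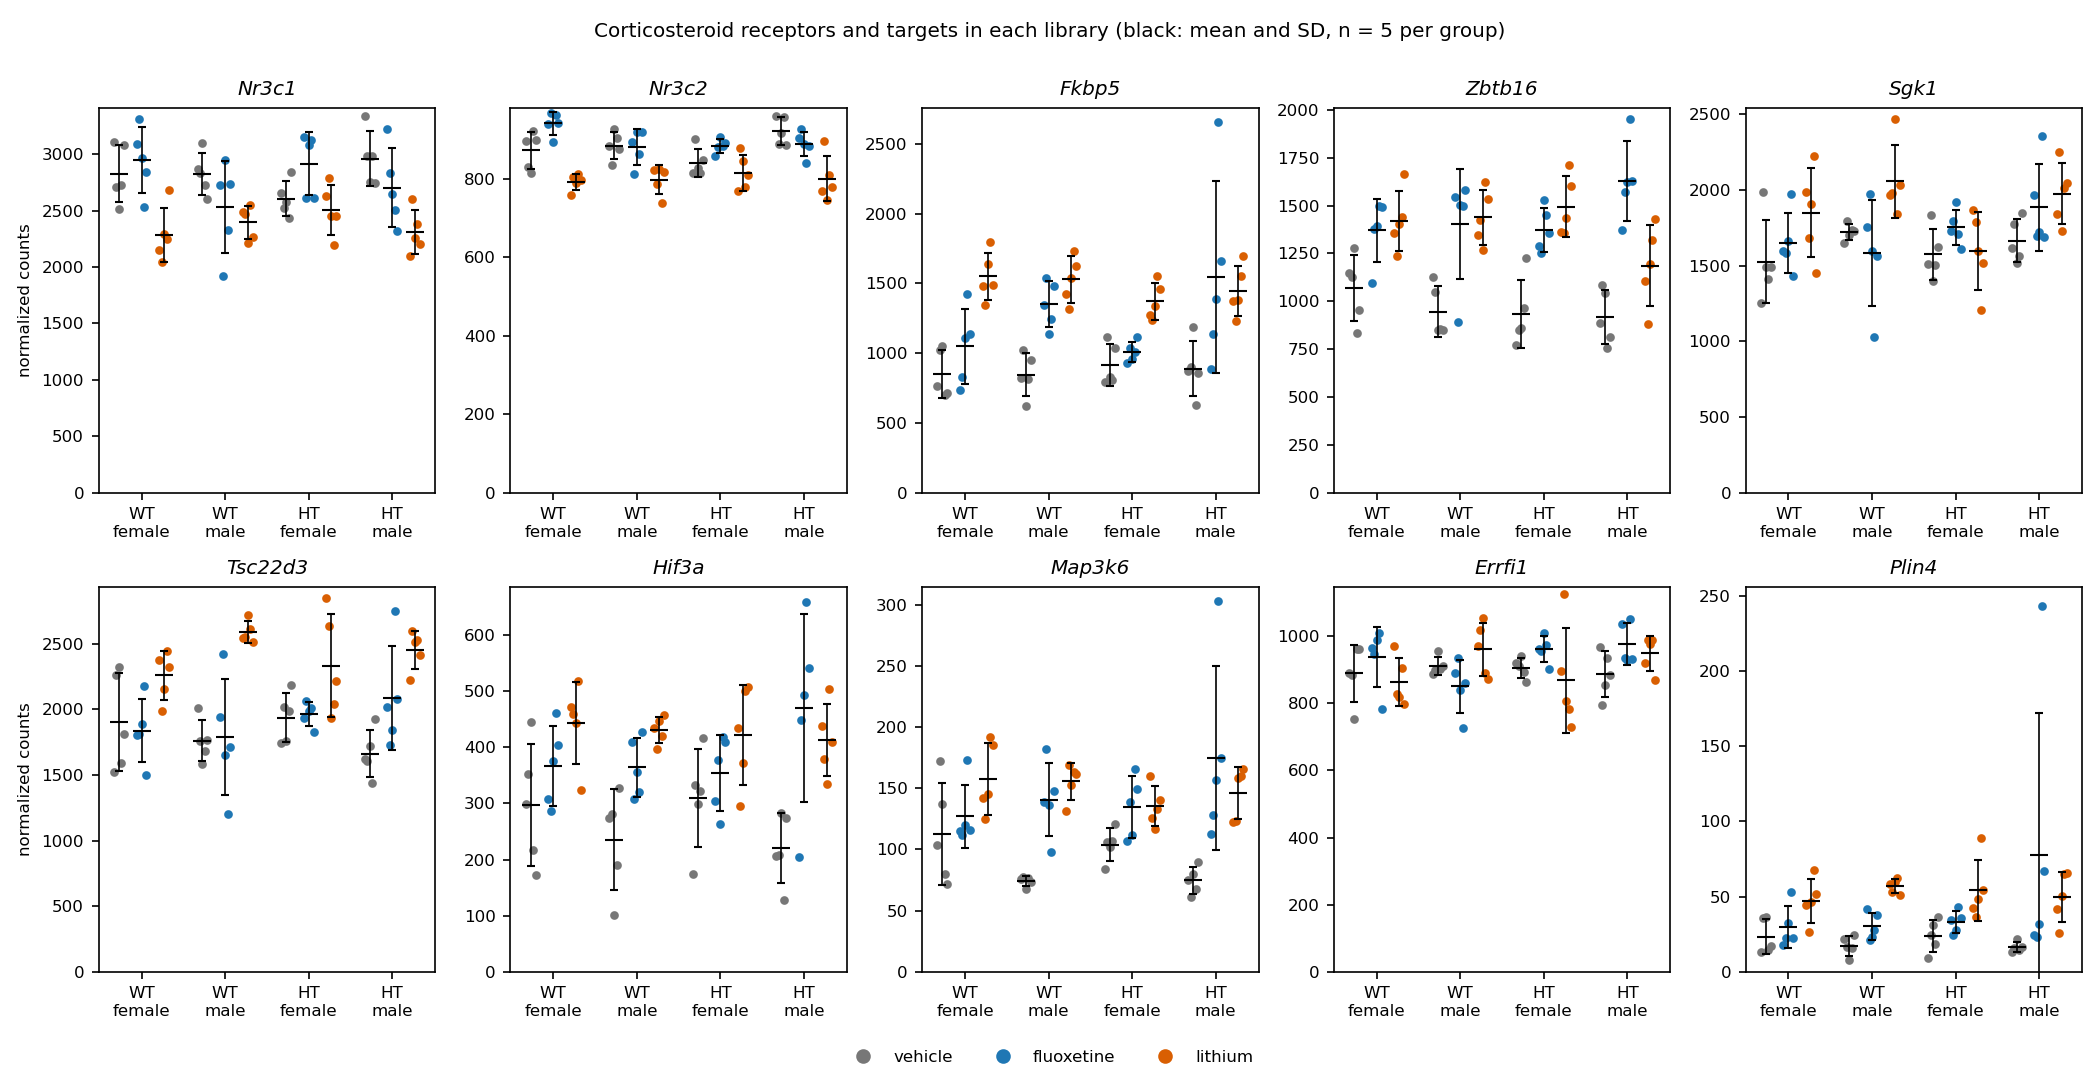
Normalized counts (vertical axes, from 0) of the 10 genes in each library, arranged by genotype and sex; dots are libraries coloured by treatment, black bars are the mean and SD of 5. Lithium dots of Fkbp5 all lie above vehicle dots, while 1 HT fluoxetine male stands far above its group in Fkbp5, Map3k6 and Plin4.

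Nr3c1 (ENSMUSG00000024431) encodes the glucocorticoid receptor. Its normalized count ran from 2433 to 3341 in the 20 vehicle libraries (median 2747), from 1922 to 3312 under fluoxetine (median 2782) and from 2047 to 2789 under lithium (median 2339). Lithium libraries were the low ones, each below the vehicle mean, though the ranges overlapped. The log2 fold change, on the log2(normalized count + 1) scale, was -0.24 ± 0.04 (SE) for lithium and -0.02 ± 0.04 for fluoxetine over all arms. By arm, lithium values were lower in WT females (-0.31 ± 0.09), WT males (-0.24 ± 0.09) and HT males (-0.36 ± 0.09) and differed least in HT females (-0.06 ± 0.09). Among WT males the 5 lithium libraries held 2216, 2267, 2468, 2482 and 2549 normalized counts of Nr3c1 and the 5 vehicle libraries 2598, 2723, 2830, 2866 and 3094. These groups did not overlap, nor did those of HT males. In bulk tissue, fewer cells of a type and less RNA per cell cannot be told apart.

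Nr3c2 (ENSMUSG00000031618, GRCm38 chromosome 8, 76899442 to 77245012, plus strand) encodes the mineralocorticoid receptor. Vehicle libraries held 815 to 961 normalized counts (median 889), fluoxetine libraries 813 to 968 (median 894) and lithium libraries 739 to 897 (median 801). Lithium again gave the low values, with 1 of 20 libraries above the vehicle mean. Its log2 fold change was -0.13 ± 0.02 (SE) for lithium and 0.03 ± 0.02 for fluoxetine. The WT female groups did not overlap, at 759, 791, 797, 804 and 811 under lithium against 815, 831, 896, 899 and 922 under vehicle. Exons of Nr3c2 overlap those of the noncoding gene Gm10649 on the opposite strand. The library kit keeps strand, but whether counting used it is not given in the sources used here.

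Fkbp5 (ENSMUSG00000024222, chromosome 17, 28399094 to 28517527, minus strand) encodes a co-chaperone that lowers the affinity of the receptor for its hormone. Its normalized counts were 619 to 1185 in vehicle (median 842), 739 to 2659 in fluoxetine (median 1137) and 1233 to 1795 in lithium libraries (median 1474). The lowest lithium library lay above the highest vehicle library, whereas fluoxetine overlapped both. Lithium gave a log2 fold change of 0.77 ± 0.09 (SE), a 1.70-fold higher level, and fluoxetine a change of 0.46 ± 0.09. Under lithium the 4 arms lay close together, from 0.59 ± 0.17 in HT females to 0.88 ± 0.17 in WT females. Under fluoxetine they spread from 0.15 ± 0.17 in HT females and 0.29 ± 0.17 in WT females to 0.69 ± 0.17 in WT males and 0.72 ± 0.17 in HT males. HT fluoxetine males held 888, 1136, 1385, 1664 and 2659 normalized counts of Fkbp5 against 627, 857, 876, 905 and 1185 in HT vehicle males. These groups overlapped, and the highest library, replicate 4, stood apart.

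Zbtb16 (ENSMUSG00000066687, chromosome 9, 48654297 to 48836222, minus strand) encodes the zinc finger transcription factor PLZF. Vehicle libraries held 757 to 1281 normalized counts (median 922), fluoxetine libraries 891 to 1952 (median 1494) and lithium libraries 883 to 1713 (median 1382). Both drugs gave similar levels, and 19 of 20 libraries under each lay above the vehicle mean. Log2 fold changes of Zbtb16 were 0.58 ± 0.07 (SE) for fluoxetine and 0.52 ± 0.07 for lithium. HT males had the drugs in the other order from the remaining arms, at 0.83 ± 0.13 for fluoxetine and 0.36 ± 0.13 for lithium. Among HT females the fluoxetine libraries (1250, 1288, 1354, 1449 and 1528) all exceeded the vehicle libraries (772, 848, 859, 963 and 1224). WT fluoxetine males fell into 4 libraries between 1497 and 1579 and replicate 2 at 891, inside the vehicle range.

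Hif3a (ENSMUSG00000004328, chromosome 7, 17031507 to 17062427, minus strand) encodes a member of the hypoxia-inducible factor family. It held 101 to 445 normalized counts under vehicle (median 278), 205 to 658 under fluoxetine (median 391) and 295 to 519 under lithium (median 437). Its log2 fold change was 0.76 ± 0.12 (SE) for lithium and 0.59 ± 0.12 for fluoxetine. All 20 lithium libraries lay above the vehicle mean of the log2 values, and so did 19 of 20 fluoxetine libraries.

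Map3k6 (ENSMUSG00000028862, chromosome 4, 133240818 to 133252929, plus strand) encodes a kinase of the stress-activated MAP kinase cascade. It held 61.0 to 172 normalized counts under vehicle (median 80.1), 98.2 to 303 under fluoxetine (median 137) and 117 to 192 under lithium (median 149). All 40 libraries of the drug groups lay above the vehicle mean of the log2 values. The log2 fold change was 0.73 ± 0.09 (SE) for lithium and 0.65 ± 0.09 for fluoxetine. Vehicle males were tightly grouped, with WT males at 67.3, 73.5, 75.5, 76.3 and 77.3, all below the WT male fluoxetine libraries (98.2, 136, 139, 147 and 182). Vehicle females of WT ranged more widely, from 71.7 to 172, and overlapped both drugs.

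Plin4 (ENSMUSG00000002831, chromosome 17, 56100591 to 56109803, minus strand) encodes perilipin 4, a coat protein of lipid droplets. It was the scarcest member and had the widest differences. Vehicle libraries held 7.60 to 36.6 normalized counts (median 16.8), fluoxetine libraries 18.1 to 243 (median 29.8) and lithium libraries 25.8 to 88.6 (median 51.3). Under lithium the log2 fold change of Plin4 was 1.38 ± 0.19 (SE), a 2.60-fold higher level, and under fluoxetine 0.83 ± 0.19. WT males showed no overlap between lithium (51.1, 52.8, 58.3, 59.5 and 62.4) and vehicle (7.60, 16.1, 16.4, 21.6 and 24.5). HT fluoxetine males held 23.1, 24.3, 31.6, 67.0 and 243, so their mean of 77.8 ± 94.0 (SD, n = 5) rested on replicate 4. Without that library the fluoxetine log2 fold change over all arms was 0.68. Exons of Plin4 overlap the coding gene Hdgfl2 on the opposite strand, and its counts carry the same doubt as those of Nr3c2.

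Tsc22d3 (ENSMUSG00000031431, chromosome X, 140539528 to 140600659, minus strand) encodes GILZ, a leucine zipper protein that mediates anti-inflammatory effects of glucocorticoids. It held 1438 to 2322 normalized counts under vehicle (median 1758), 1206 to 2751 under fluoxetine (median 1910) and 1930 to 2851 under lithium (median 2478). Lithium libraries were all above the vehicle mean, and fluoxetine libraries spread over the vehicle range and beyond it on both sides. The log2 fold change was 0.41 ± 0.06 (SE) for lithium and 0.07 ± 0.06 for fluoxetine. In WT males, lithium (2509, 2546, 2551, 2613 and 2718) and vehicle (1587, 1679, 1759, 1769 and 2012) did not overlap.

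Sgk1 (ENSMUSG00000019970, chromosome 10, 21882184 to 21999903, plus strand) encodes a kinase that acts on ion channels and transporters. Its values were 1252 to 1986 under vehicle (median 1618), 1028 to 2357 under fluoxetine (median 1703) and 1205 to 2472 under lithium (median 1885). All 3 ranges overlapped widely. Sgk1 differed from vehicle by 0.20 ± 0.06 (log2, SE) for lithium and 0.07 ± 0.06 for fluoxetine. WT males were the only arm with no overlap between lithium (1839 to 2472) and vehicle (1653 to 1793).

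Errfi1 (ENSMUSG00000028967, chromosome 4, 150853919 to 150868892, plus strand) encodes an inhibitor of the epidermal growth factor receptor. It was level across treatments. Vehicle libraries held 753 to 968 normalized counts (median 901), fluoxetine libraries 726 to 1052 (median 942) and lithium libraries 729 to 1127 (median 901). Its log2 fold change was 0.05 ± 0.04 (SE) for fluoxetine and 0.01 ± 0.04 for lithium.

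The members called at a limma adjusted p under 0.05, counted as a description, were 9 of 10 for lithium over all arms, 7 targets higher and both receptors lower, where 22.6% of all 17804 genes tested were called (11.4% higher, 11.2% lower). For fluoxetine they were 5 of 10, all targets with a higher level, where 14.5% of all genes were called (6.71% higher). The median log2 fold change of the 8 targets was 0.63 under lithium and 0.52 under fluoxetine, beside 0.00 for all genes under each drug. Both comparisons use the same vehicle libraries. With library depth as a covariate, Fkbp5 and Hif3a left the called genes for fluoxetine (3 of 10 then called) and Sgk1 left them for lithium. Sgk1 also left with striatal and olfactory bulb scores as covariates. Under lithium 6 of 10 striatal markers were also called lower than under vehicle (median -0.45). The vehicle groups were uneven in these markers. Their summed normalized counts had a median of 18143 in HT vehicle males. The medians were 6937 in HT vehicle females, 6533 in WT vehicle females and 6241 in WT vehicle males. Over all vehicle libraries the median sum was 6932, and over all lithium libraries 7501. HT vehicle males also enter the comparisons of genotype. Under fluoxetine 3 of 8 cortical excitatory markers were called higher (median 0.17). The log2 fold changes with depth in the model were 0.49 for Fkbp5 and 0.71 for Hif3a under fluoxetine and 0.16 for Sgk1 under lithium. The share of all genes called with depth in the model is not given here.

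**Figure D2:**
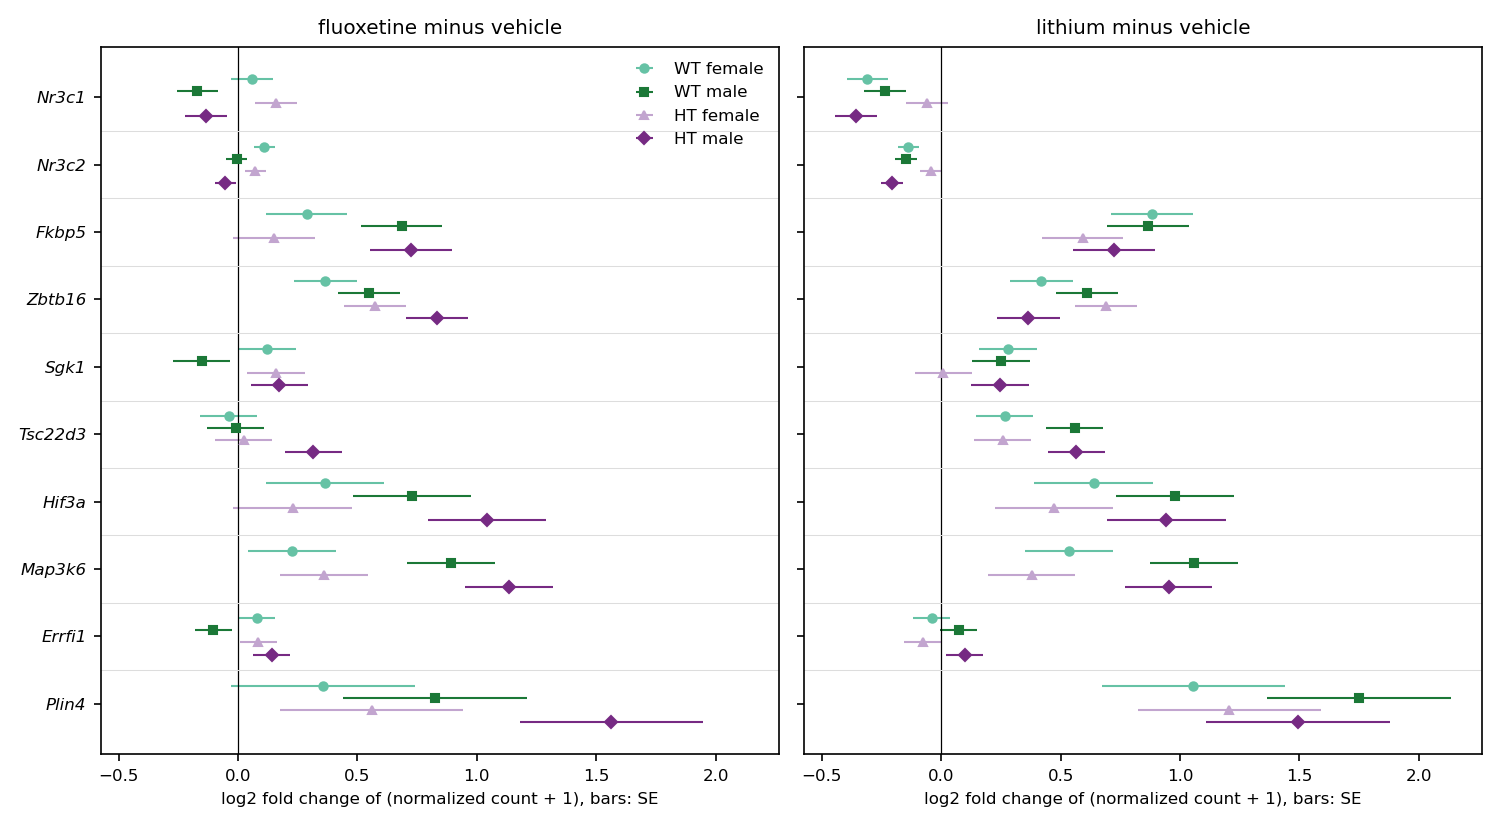
Log2 fold change against vehicle (horizontal axes) of each gene in each genotype and sex, fluoxetine left and lithium right; bars are the SE from the fit of all 60 libraries. Under lithium both receptor genes are at or below 0 in all 4 arms while Fkbp5, Zbtb16, Tsc22d3, Hif3a, Map3k6 and Plin4 are above 0; under fluoxetine, males lie to the right of females for Fkbp5, Hif3a, Map3k6 and Plin4.

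By the sign of the difference in each arm, receptors and most targets therefore ran in opposite directions under lithium. They had no common direction under fluoxetine. Under lithium both receptor genes were below vehicle in 4 of 4 arms, and 7 or 8 of the 8 targets were above it. In HT females the receptor differences were small and the groups overlapped. Their means under lithium and vehicle were 2504 and 2606 normalized counts for Nr3c1, and 816 and 841 for Nr3c2. The median target log2 fold change was 0.74 in WT males, 0.64 in HT males, 0.48 in WT females and 0.42 in HT females. Under fluoxetine both receptor genes were above vehicle in females and below it in males. For Nr3c2 in WT males the means were nearly equal, at 882 under fluoxetine and 885 under vehicle. The targets above vehicle numbered 7 of 8 in WT females, 5 in WT males and 8 in both HT arms, with medians of 0.26, 0.62, 0.19 (HT females) and 0.78 (HT males). Groups without overlap were most common in WT males under lithium, for 9 of 10 members, where 6.79% of all genes showed none. HT males under lithium followed with 6 of 10 (7.3% of all genes). The other lithium arms had 2 each (3% in WT females, 3.06% in HT females). Under fluoxetine there were 3 in HT males (1.98%), 2 in WT males (1.92%), 1 in HT females (8.33%) and 0 in WT females (1.82%). In HT males under fluoxetine 5 of 10 members were called (0.595% of all genes), and without replicate 4, replicate 5 or vehicle replicate 4 only 2 were.

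Larger fluoxetine differences in males than in females were tested as a sex by drug interaction. It reuses the drug and vehicle libraries on which the members were selected, and it was chosen with earlier results known. Its p-values are therefore descriptions. The difference of log2 fold changes (male minus female) was 0.72 ± 0.18 (SE) for Map3k6 (limma adjusted p = 0.201), 0.74 ± 0.38 for Plin4 (0.446), 0.59 ± 0.25 for Hif3a (0.337), 0.49 ± 0.17 for Fkbp5 (0.271) and -0.26 ± 0.09 for Nr3c1 (0.247). None of the 10 members passed for either drug (2 genes, 0.0112% of all, passed for each) by limma. Of the 20 interaction values, 7 had an unadjusted p under 0.05, 5 of them for fluoxetine. edgeR called 0 and DESeq2 called 1, Map3k6 for fluoxetine (0.80, adjusted p = 0.0471). For lithium the limma values ran from -0.11 for Nr3c1 to 0.55 ± 0.18 for Map3k6 (adjusted p = 0.399). Part of the gap lay in the vehicle libraries, where male minus female was -0.50 ± 0.13 for Map3k6 (0 of 10 males above the female mean, limma adjusted p = 0.148), -0.43 ± 0.17 for Hif3a (0.587) and -0.40 ± 0.27 for Plin4 (0.822), none past the threshold, which 0.124% of all genes passed.

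The sexes themselves were close. Over all treatments 0 of 10 members passed limma between males and females (1.19% of all genes did), and edgeR and DESeq2 also called 0. Fkbp5 (0.15 ± 0.07, adjusted p = 0.220, above the female mean in 20 of 30 males) and Sgk1 had an unadjusted p under 0.05. Within fluoxetine, Fkbp5 was higher in males by 0.45 on the log2 scale (limma adjusted p = 0.039), the only member called where 1.53% of all genes were. The count of members called was 0 without any of 10 single libraries (HT female replicates 1, 2 and 4, HT male replicates 4 and 5, WT female replicates 1, 2 and 5 and WT male replicates 2 and 5, all under fluoxetine). Under vehicle the log2 difference of Fkbp5 between the sexes was -0.03 and under lithium 0.03.

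Genotype moved none of the 10 genes past the threshold. Between HT and WT libraries 0 of 10 members passed limma over all arms (5.06% of all genes did), 0 had an unadjusted p under 0.05, and edgeR and DESeq2 called 0. The log2 fold changes ran from -0.04 ± 0.05 (SE) for Zbtb16 to 0.15 ± 0.16 for Plin4, with 0.02 ± 0.04 for Nr3c1 and 0.00 ± 0.07 for Fkbp5. In HT against WT vehicle males the 10 values lay between -0.09 (Tsc22d3) and 0.07 (Nr3c1) on the log2 scale. The genotype by drug interaction likewise gave 0 of 10 members for fluoxetine and for lithium, 0 of 20 values with an unadjusted p under 0.05 and 0 calls by edgeR and DESeq2. By limma 0% of the 17804 genes passed it for either drug. The outermost values were 0.47 ± 0.38 for Plin4 under fluoxetine and -0.22 ± 0.17 for Fkbp5 under lithium (adjusted p = 0.937).

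Set directly against each other, fluoxetine and lithium libraries gave different levels of both receptor genes and of part of the targets. The comparison reuses the drug libraries whose values chose the genes, so it too is a description without p-values. Fluoxetine libraries had more Nr3c1 (log2 fold change 0.22 ± 0.04 SE, above the lithium mean in 17 of 20) and more Nr3c2 (0.17 ± 0.02, 20 of 20). They had less Tsc22d3 (-0.34 ± 0.06, above the lithium mean in 2 of 20), less Fkbp5 (-0.30 ± 0.09, 4 of 20) and less Plin4 (-0.55 ± 0.19, 3 of 20). These 5 of 10 members were among the genes called, which made up 32.9% of all. The other 5 were not among them, at 0.06 ± 0.07 for Zbtb16, -0.08 ± 0.09 for Map3k6, -0.17 ± 0.12 for Hif3a, -0.12 ± 0.06 for Sgk1 and 0.04 ± 0.04 for Errfi1.

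Plin4 left the called genes with edgeR (-0.41), with DESeq2 (-0.41), with depth as a covariate (-0.37) and with the oligodendrocyte score (-0.51). Sgk1 joined them with array weights (-0.15) and with the oligodendrocyte score (-0.22). Fluoxetine and lithium libraries also differed in cell type markers. Of 10 oligodendrocyte markers 9 were called higher under fluoxetine (median log2 fold change 0.38). Of 10 striatal markers 5 were called higher (median 0.36), and of 8 cortical excitatory markers 5 were (median 0.19). Between the drugs 32.9% of all genes were called in either direction. Against vehicle, the oligodendrocyte markers summed to 71810 to 190320 normalized counts in vehicle, 99329 to 190321 in fluoxetine and 55214 to 180012 in lithium libraries. Under lithium 9 of 10 of these markers were called lower than under vehicle (median -0.34), where 11.2% of all genes were. With the score of these markers in the model the 9 members called for lithium were still called. No marker of that list was at 0.

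Receptor availability depends on partners that were listed too. All gene lists were drawn up with earlier results of these data known. The p-values of list genes, here and below, are therefore descriptions and no independent support. Among 11 chaperones of the receptor complex, 2 rose under fluoxetine (median log2 fold change 0.05), where 14.5% of all genes were called. These were Ppid, an immunophilin that competes with FKBP51 for heat shock protein 90 (0.18 ± 0.04 SE, limma adjusted p = 6.67e-04, above the vehicle mean in 19 of 20), and Ptges3, the co-chaperone p23 (0.15 ± 0.03, 0.0013, 19 of 20). Under lithium 1 of 11 fell, where 22.6% of all genes were called. It was Hsp90ab1 (-0.11 ± 0.04, 0.020, above the vehicle mean in 3 of 20). With depth in the model Ppid (0.20, adjusted p = 0.0882) and Ptges3 (0.09, 0.447) did not pass, and with the oligodendrocyte score Hsp90ab1 did not (-0.05, 0.336). The corepressor gene Ncor1 rose under fluoxetine (0.10 ± 0.03, 0.012), a call lost with quantile normalization and with depth in the model. Under lithium it was at -0.07 ± 0.03 (0.044), a call lost in 22 of 60 fits without a single library and under 4 of 14 other settings.

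Of 4 genes of steroid supply to the cell, 3 passed under lithium and 1 under fluoxetine, where 22.6% and 14.5% of all genes did. Hsd11b1, whose enzyme regenerates corticosterone, did not pass under lithium (-0.01 ± 0.06, limma adjusted p = 0.890) or fluoxetine (-0.01 ± 0.06, 0.918). Its partner H6pd (-0.14 ± 0.05, 0.040) and the steroid reductase gene Srd5a1 (-0.16 ± 0.06, 0.036) fell under lithium. Abcb1a, the drug and steroid efflux pump of the blood-brain barrier, rose under both lithium (0.14 ± 0.04, 0.019) and fluoxetine (0.14 ± 0.04, 0.030). The call of H6pd was lost in 17 of 60 fits without a single library and that of Srd5a1 in 11. With the oligodendrocyte score in the model Srd5a1 was at 0.00, H6pd at -0.08 (adjusted p = 0.294) and Abcb1a at 0.11 (0.101) under lithium. With depth in the model Abcb1a did not pass under fluoxetine (0.24, 0.0679). Of the 5 stress peptide and receptor genes tested, 2 rose and 1 fell under lithium, beside 22.6% of all genes called. Adcyap1, the gene of the neuropeptide PACAP, rose (0.22 ± 0.04, 1.05e-05, above the vehicle mean in 19 of 20), and Crh, the gene of corticotropin-releasing hormone, did not pass (0.03 ± 0.06, 0.767).

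Pgr, the progesterone receptor gene, did not pass against vehicle under fluoxetine (0.16 ± 0.07, limma adjusted p = 0.115) or lithium (-0.04 ± 0.07, 0.735). Between the drugs it was higher under fluoxetine, by 0.20 ± 0.07 (limma adjusted p = 0.023, above the lithium mean in 17 of 20), and it did not pass with depth in the model (0.20, 0.0751).

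A separate list of 24 glucocorticoid-induced genes, also drawn up with results of these libraries known, was set beside the 8 targets as a description without p-values. Under lithium 18 of 24 were called higher (median log2 fold change 0.23), where 11.4% of all genes were, and because of that choice the count is no independent support. The 4 with the smallest p were Gjb6, an astrocyte connexin (0.41 ± 0.06 SE, above the vehicle mean in 20 of 20), Rasd1, a dexamethasone-induced G protein (0.44 ± 0.06, 19 of 20), Sult1a1, a sulfotransferase (0.77 ± 0.12, 20 of 20), and Mertk, a phagocytic receptor kinase (0.33 ± 0.05, 20 of 20).

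Under fluoxetine 3 of the 24 were called higher and 3 lower (median 0.06), where 14.5% of all genes were called and 6.71% were called higher. Klf9 (0.18 ± 0.04), Bcl6 (0.17 ± 0.03) and Mertk (0.23 ± 0.05) were higher. Per1, a clock gene (-0.25 ± 0.05, above the vehicle mean in 2 of 20), Dusp1 and Ddit4 were lower. With depth in the limma model 0 of the 24 were called for fluoxetine and 10 were called higher for lithium. The share of all genes called in that model is not given here. Fluoxetine libraries were all deeper than vehicle libraries, so that model cannot tell depth and fluoxetine apart. Over 14 other settings, depth among them, fluoxetine values were 0.15 to 0.21 for Klf9, 0.14 to 0.18 for Bcl6 and 0.19 to 0.26 for Mertk. They were -0.27 to -0.15 for Per1, -0.55 to -0.28 for Dusp1 and -0.33 to -0.24 for Ddit4. Dusp1 and Per1 are also induced by neuronal activity, and 8 of 10 immediate early genes fell under fluoxetine (median -0.56), where 14.5% of all genes were called. Nr4a1 (-0.57 ± 0.10, limma adjusted p = 9.09e-05) and Junb (-0.58 ± 0.10, 9.71e-05) were among them. With depth in the model neither passed (Nr4a1 -0.35, adjusted p = 0.258; Junb -0.37, 0.252). Under lithium the median of these 10 genes was -0.03. The part of activity-linked RNA in the members' values was not tested.

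**Figure D3:**
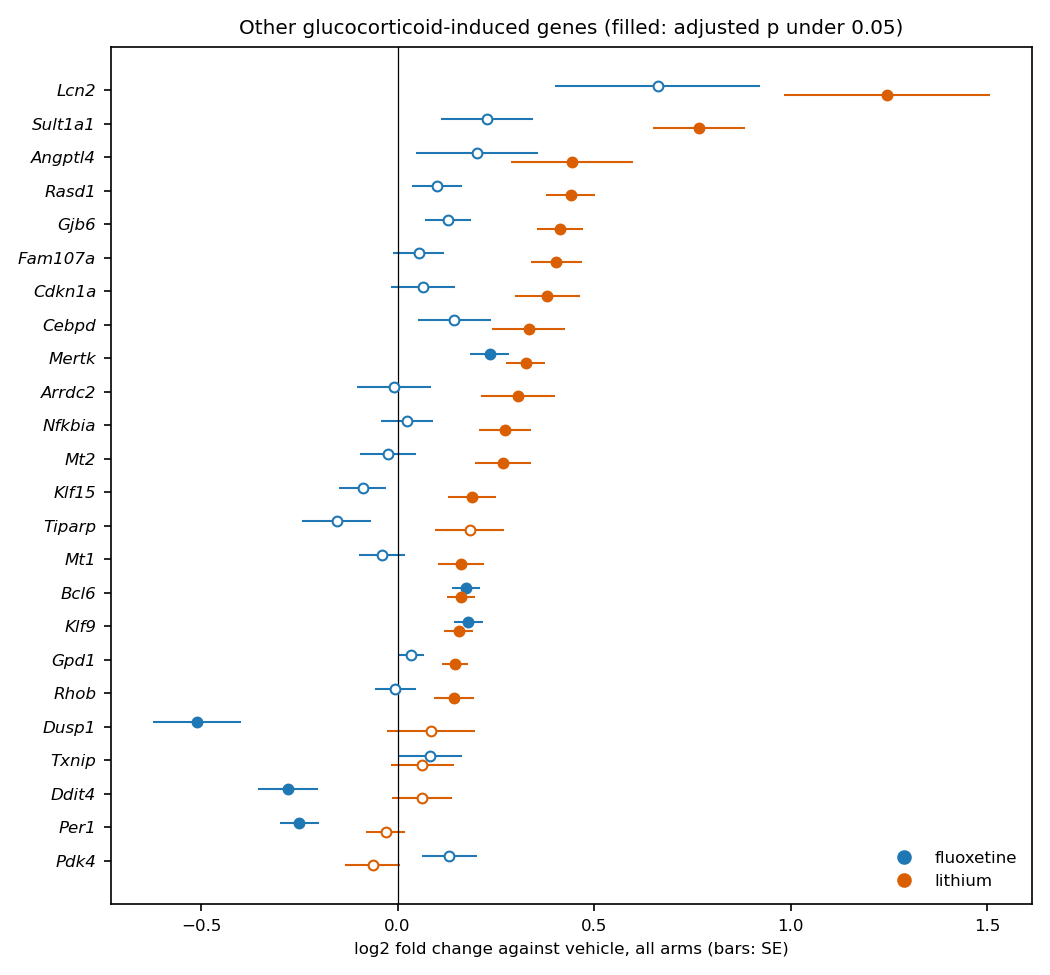
Log2 fold change against vehicle over all arms (horizontal axis) of 24 other glucocorticoid-induced genes, ordered by the lithium value; bars are SE and filled points passed an adjusted p of 0.05. Lithium points are filled for 18 genes, all to the right of 0, and fluoxetine points for 6, of which 3 lie to the left.

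Whether receptors moved with targets was also asked inside the groups, from each library's log2 deviation from its group mean, a measure that differences between groups do not enter. Receptor and target messages ran against each other for part of the pairs. Over 60 libraries Pearson's r of Nr3c1 was -0.51 with Fkbp5 (permutation p = 2.0e-04, adjusted over the 45 pairs 7.5e-04; Spearman's rho -0.51, p = 2.6e-04, adjusted 0.0011) and -0.46 without the 2 libraries farthest in Nr3c1. With Hif3a it was -0.44 (permutation p = 4.4e-04, adjusted 0.0015; rho -0.47, p = 5.7e-04, adjusted 0.0018; -0.46 without 2 libraries). The remaining 6 targets did not pass by Pearson's r, at -0.33 for Map3k6, -0.31 for Plin4, -0.16 for Tsc22d3, -0.06 for Sgk1, 0.12 for Zbtb16 and 0.22 for Errfi1. By rho Plin4 also passed (-0.33, adjusted permutation p = 0.041). The mean over the 8 targets was -0.19, with 2 of 8 positive.

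By treatment this mean was -0.25 in vehicle, -0.24 in fluoxetine and -0.00 in lithium libraries, without a test of the difference. Within lithium the pairs split, at -0.60 for Hif3a and 0.55 for Tsc22d3. It was -0.17 in females and -0.21 in males. Nr3c2 gave a mean of -0.20 and passed with 4 of 8 targets. These were Map3k6 (r = -0.38, permutation p = 0.0060, adjusted 0.012), Fkbp5 (-0.37, 0.0030, adjusted 0.0072), Plin4 (-0.35, 0.0083, adjusted 0.016) and Hif3a (-0.30, 0.028, adjusted 0.046), the last not by rho (adjusted 0.052). The receptor genes went together (r = 0.44, permutation p = 0.0014, adjusted 0.0037; rho 0.44, adjusted 0.0052).

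**Figure D4:**
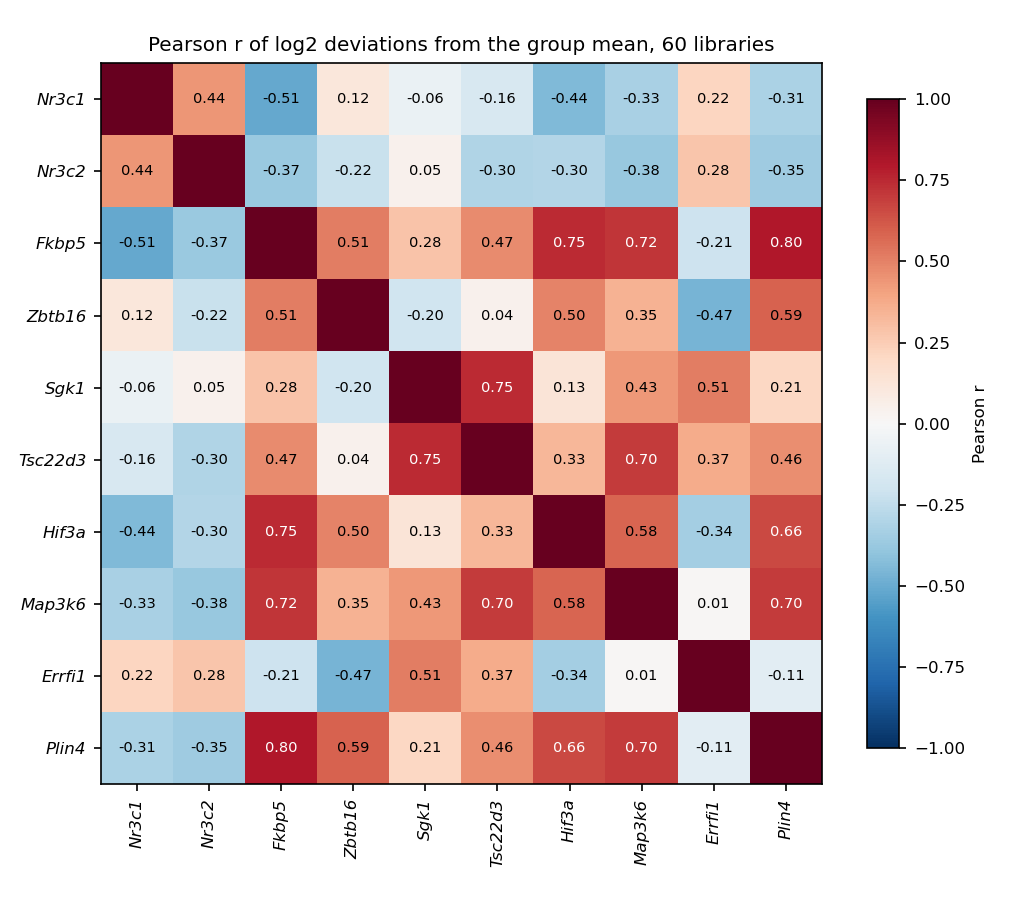
Pearson's r (colour and number, -1 to 1) between the 10 genes, from log2 deviations of 60 libraries from their group means. Fkbp5, Hif3a, Map3k6 and Plin4 form a red block with values of 0.58 to 0.80, and the 2 receptor rows are mostly blue against them.

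Most targets went together among themselves. Of their 28 pairs 18 passed with a positive and 2 with a negative r, and the mean was 0.34. Fkbp5 and Plin4 had the highest value (r = 0.80, permutation p = 1e-05, the smallest that 100000 permutations can give, adjusted 6.4e-05; rho 0.74; 0.72 without the 2 libraries farthest in Fkbp5). Fkbp5 with Hif3a followed (0.75, same p; 0.70 without 2), then Fkbp5 with Map3k6 (0.72; 0.61 without 2). Zbtb16 belonged to the same set, at 0.59 with Plin4 and 0.51 with Fkbp5. The correlation of Fkbp5 and Plin4 was 0.71 within vehicle, 0.85 within fluoxetine and 0.82 within lithium libraries.

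A second set was Sgk1 with Tsc22d3 (r = 0.75, permutation p = 1e-05, adjusted 6.4e-05, rho 0.63, and 0.68 without the 2 libraries farthest in Sgk1). The sets were not separate. Map3k6 was at 0.70 with Tsc22d3 and at 0.43 with Sgk1 (adjusted permutation p = 0.012), the latter not by rho (adjusted 0.105). Tsc22d3 also passed with Fkbp5 (0.47, adjusted permutation p = 0.0037), Plin4 (0.46, adjusted 0.0056) and Hif3a (0.33, adjusted 0.043), and was at 0.04 with Zbtb16. Sgk1 did not pass with Fkbp5 (0.28), Plin4 (0.21), Hif3a (0.13) or Zbtb16 (-0.20). Errfi1 sided with the second set (0.51 with Sgk1, adjusted p = 0.0027, and 0.37 with Tsc22d3, adjusted p = 0.043, both by permutation) and ran against Zbtb16 (-0.47, adjusted 0.0018) and Hif3a (-0.34, adjusted 0.011). Within vehicle libraries, however, Errfi1 was at -0.58 with Tsc22d3 and at -0.18 with Sgk1, so its place in the second set came from the drug libraries. Its deviations followed the mean log2 deviation of the immediate early genes (r = 0.65, given as a description). Those of Fkbp5 and Zbtb16 were at -0.43 and -0.48 with that mean.

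Some deviations also went with markers of cell composition, given here as descriptions over 60 libraries without p. Each marker list was taken as the mean log2 deviation of its genes. Nr3c1 was at r = 0.65 with cortical excitatory neuron markers and -0.46 with olfactory bulb markers. Hif3a was at -0.42 and 0.13 with these, and at 0.39 with astrocyte markers. Sgk1 was at 0.44 with oligodendrocyte, 0.49 with oligodendrocyte precursor and -0.48 with olfactory bulb markers. Its lowest value was -0.57, with choroid plexus markers. Red blood cell markers were at 0.44 with Tsc22d3, 0.35 with Map3k6 and 0.32 with Fkbp5. Fkbp5 lay between -0.20 and 0.06 with excitatory, astrocyte, oligodendrocyte, precursor, endothelial and microglial markers. With the striatal and olfactory bulb scores as covariates the mean r of Nr3c1 with the targets was -0.30, and with the oligodendrocyte score it was -0.19. No fit had a score of the cortical excitatory markers as a covariate, although Nr3c1 went with these markers. The part of cell composition in the single pairs was not tested.

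**Figure D5:**
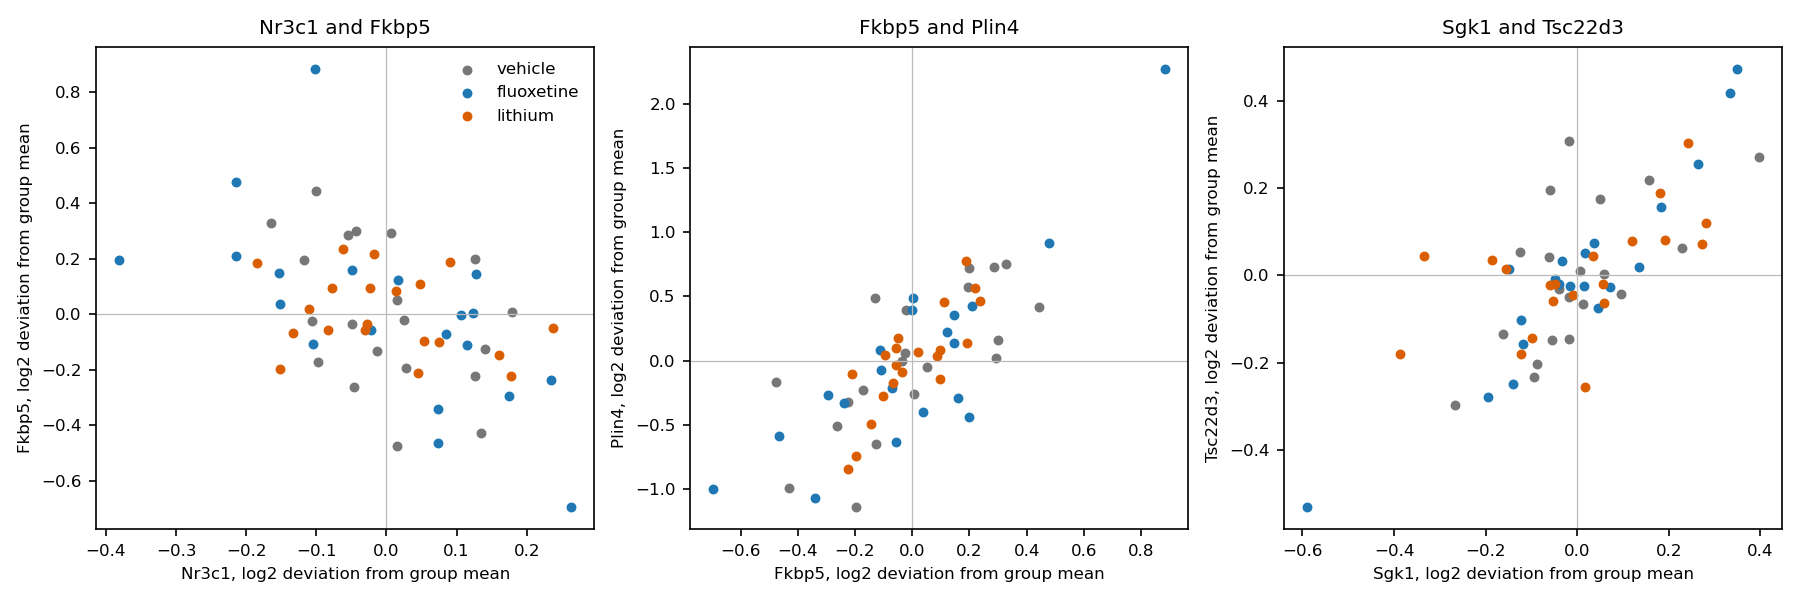
Log2 deviations from the group mean of 3 pairs of genes, each point a library coloured by treatment. Fkbp5 falls as Nr3c1 increases (r = -0.51), and the pairs Fkbp5 with Plin4 and Sgk1 with Tsc22d3 lie along rising lines (r = 0.80 and 0.75).

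Single libraries were also followed across the targets. HT fluoxetine male replicate 4 was the highest of its group in all 8 targets, among them Plin4 at 243, Fkbp5 at 2659, Map3k6 at 303 and Tsc22d3 at 2751, and it was the lowest in Nr3c2 at 842. Replicate 1 of that group had the lowest Fkbp5 (888), Hif3a (205), Map3k6 (112) and Zbtb16 (1373) together with the highest Nr3c1 (3225). WT fluoxetine male replicate 2 split the targets, with the highest values of its group in Fkbp5 (1538), Sgk1 (1971), Tsc22d3 (2423), Map3k6 (182) and Errfi1 (935) and the lowest in Zbtb16 (891), Hif3a (308) and Plin4 (21.3). Its Nr3c1 was 1922, the lowest of the 60 libraries.

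The genes nearest to 4 members by the same measure were listed among 12836 genes, as a description over 60 libraries. Nearest to Nr3c1 were Dmd (r = 0.77), Secisbp2l (0.76), Tmem56 (0.76), Vps13a (0.76) and Dyrk2 (0.76). Nearest to Nr3c2 were Atp2b4 (0.70), Sh3kbp1 (0.68), Rab3c (0.67), Plxdc2 (0.65) and Xkr4 (0.64). For Fkbp5 they were Igfbp3 (0.75), Hif3a (0.75), Sult1a1 (0.75), Paqr5 (0.74) and Atp10a (0.72), so that a member and a gene of the second list were among its 5 nearest. Plin4, below the minimum mean level of this search, was at 0.80. For Zbtb16 they were Serpinb8 (0.71), Spire1 (0.67), Col19a1 (0.66), Acap2 (0.65) and Paqr5 (0.65). The median r with all genes lay between -0.02 and 0.00 for these 4 members.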

How the data were processed

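Messenger RNA of 60 prefrontal cortex samples was sequenced after stranded library preparation, per the labels' protocols. The deposited signal values are reads per gene scaled by a size factor for each library (0.850 to 1.25), as the values themselves show (100% of them whole multiples of a library step, within 0.01). Salmon 0.11.2, R 3.6.0, DESeq2 1.19.11 and GRCm38 are named per the submitters' processing notes, while the annotation, strand setting and gene filter are not given in the sources used here. Symbols came from GENCODE (18077 of 18088 identifiers matched).

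The main test was limma 3.58.1 (R 4.3.3) with a trend on log2(normalized count + 1) and 12 group means (48 residual degrees of freedom), for 17804 genes that reached 10 normalized counts in 5 or more libraries (284 removed). Benjamini-Hochberg adjustment ran over all genes of a contrast, with calls at an adjusted p under 0.05. edgeR 4.0.16 on the recovered reads called 2627 genes for fluoxetine, 4015 for lithium, 930 for genotype, 259 for sex and 5963 between the drugs; DESeq2 1.42.0 was a further alternative. Correlations used deviations from group means, with 100000 permutations of libraries within groups. Scripts were tested on simulated data. Within-group library pairs differed by at least 5.22 in chi-square per degree of freedom, so none was counted as a repeat.

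The members, gene lists and tests were chosen with earlier results of these data known. The text names all 10 members in each main contrast, at most the 4 list genes with the smallest p in a contrast, a few unchanged list genes chosen after their values were seen, and the 5 nearest genes of 4 members whose mean reached 50 normalized counts, leaving out Gm and Rik names. Ucn of the pathway lists and 2 of the 4 choroid plexus markers (Ttr and Folr1) were not tested. Results of 2 listed genes are not reported here.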

Additional observations from a re-analysis of the deposited data

Results flagged for a closer look

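Of 120 groups of 5 values (10 genes in 12 groups), 4 held a library far from the others by Dixon's gap rule. Chance gives such a library in about 1 in 20 groups, so 4 of 120 is no more than chance gives. Plin4 was 242.947 in HT fluoxetine male replicate 4, with the others at 23.1 to 67.0. Zbtb16 was 890.718 in WT fluoxetine male replicate 2, with the others at 1497 to 1579. Map3k6 was 172.671 in WT fluoxetine female replicate 4, with the others at 112 to 120.2. Errfi1 was 783.413 in WT fluoxetine female replicate 5, with the others at 948 to 1010. All 4 lie in fluoxetine groups, and 3 of the 4 in WT. Why they stand apart was not tested.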

How the results depend on the processing

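Over the 60 fits that left out a single library, the members called numbered 5 for fluoxetine, 9 for lithium, 0 between genotypes, 0 to 1 between sexes (1 without WT fluoxetine male replicate 4), 5 to 6 between the drugs and 0 for both kinds of interaction. The mean r of Nr3c1 with the targets ran from -0.22 to -0.15 in these fits and from -0.30 to -0.16 over the other settings. Over the other settings, the members called were 3 to 5 for fluoxetine (3 with depth as a covariate), 8 to 9 for lithium, 4 to 6 between the drugs, 0 between genotypes and between sexes, and 0 to 1 for the sex by drug interaction (1 with DESeq2). These settings were other pseudocounts, filters and scalings, edgeR, DESeq2, array weights, depth or marker scores as covariates, and leaving out HT vehicle male replicate 1 with WT fluoxetine male replicate 2; the oligodendrocyte score was added after the data were seen. Signs turned only near 0. Nr3c1 under fluoxetine was 0.0198 with array weights and 0.0127 without the 2 named libraries (-0.0388 to 0.00151 with single libraries left out). Srd5a1 under lithium was 0.0023 with the oligodendrocyte score. With single libraries left out, Errfi1 under lithium ran from -0.0108 to 0.0285, and the interactions of Fkbp5 with genotype under fluoxetine and with sex under lithium from -0.160 to 0.0376 and from -0.00249 to 0.112. Replicate numbers did not pair the samples: the mean correlation of deviations was -0.0002 for the same number and 0.0000 for different numbers, and 12 of 60 libraries were closest to their own number. With the replicate number as a replicate block the members called were 5, 9, 0, 0, 5, 0 and 0 in the order above, and the mean r was -0.16. With single libraries left out, the members called in HT males under fluoxetine went from 5 to as few as 2. Depth limits Plin4 most, at 7.60 normalized counts in its lowest library.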

Other observations

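Among 15 circadian clock genes, a system that adrenal steroids help to set, 2 rose and 1 fell under lithium. This share is no higher than the 22.6% of all genes called. The clock list too was drawn up with earlier results known, so its p-values are descriptions. Per2, a repressor of the clock loop, averaged 1800 normalized counts under lithium and 1334 under vehicle (log2 fold change 0.43 ± 0.05 SE, limma adjusted p = 9.19e-09, above the vehicle mean in 20 of 20 libraries). Its partner Cry1 rose by 0.29 ± 0.05 (adjusted p = 8.04e-06, 19 of 20). Nr1d1, a nuclear receptor of the same loop, fell by 0.29 on the log2 scale (adjusted p = 9.81e-05, 1 of 20 above the vehicle mean). Per2 under fluoxetine was at 0.13 ± 0.05 (adjusted p = 0.0655) and Per1 under lithium at -0.03 ± 0.05 (0.712).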
